A study of Rattus norvegicus with 10 samples.

Results

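The cytosolic ribosome is the machine that reads messenger RNA and joins amino acids into protein. It is built from a large and a small subunit, each a core of ribosomal RNA dressed with ribosomal proteins. The genes described here encode those proteins. They were taken by symbol from the deposited count table: names made of Rpl or Rps, a number and at most 1 of the letters a, x, y or l, together with Rplp0, Rplp1, Rplp2 and Rpsa. The table held 80 such genes among its 17168 rows, 48 of the large and 32 of the small subunit. Of these, 79 passed the filter on low counts and were tested. Rpl39l, a paralog of Rpl39, was the exception, with 0 to 11 counts per library.

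Cells make ribosomal proteins in near equal amounts, and free copies are degraded. Their mRNAs are short and abundant, and most begin with a tract of pyrimidines at the very 5′ end, called a TOP element, through which the kinase mTOR and the RNA-binding protein LARP1 adjust their translation and stability. In neurons part of these mRNAs is carried into dendrites and axons, and new ribosomes are also needed for growth and lasting synaptic change.

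RNA came from the left hippocampus of 10 male TgF-344AD rats, which were perfused at the age of 11 months. This line models Alzheimer's disease and carries human transgenes for mutant amyloid precursor protein and mutant presenilin under the mouse prion promoter. A group of 5 received rodent chow and no drug. The other 5 received ibudilast, which blocks phosphodiesterases that break down cyclic nucleotides, starting when they were 5 months old and lasting 6 months. Per the series' design text the ibudilast tissue had been kept in a frozen-tissue transition solution, RNAlater-ICE, which it names for those samples and not for the untreated ones, so drug and storage cannot be told apart in any comparison here. No rat without the transgenes was among the samples.

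Libraries held 14806796 to 18533512 counts. Untreated replicate 3 stood apart from the other untreated rats in these genes, so counts and medians of most gene lists are given with and without it. It also had the lowest summed level of 12 oligodendrocyte markers, 7949 CPM (counts scaled to a common library size, with TMM factors) in a group that reached 15592 CPM, and the highest of 7 microglial and 6 endothelial markers, 755 and 544 CPM. Within its group it further had the lowest excitatory neuron sum, 4967 CPM, which lay inside the range of the ibudilast rats, the highest astrocyte sum, 6434 CPM, and the highest share of ribosomal RNA counts, 11.4%. As a loose check of the labelled tissue, each of the 12 oligodendrocyte and 8 excitatory neuron markers was detected in at least 1 library. Such detection cannot tell the hippocampus from other parts of the brain. Between the groups, the summed oligodendrocyte level ranged from 7949 to 15592 CPM in untreated and from 16189 to 19247 CPM with ibudilast, and the excitatory neuron level from 4967 to 7743 and from 1365 to 5959 CPM. Microglial markers summed to 390 to 755 and 314 to 387 CPM, endothelial ones to 295 to 544 and 146 to 259 CPM. Astrocyte markers summed to 4660 to 6434 and 3874 to 5482 CPM, interneuron ones to 302 to 539 and 311 to 505 CPM, and choroid plexus ones to 24.0 to 7872 and 70.9 to 7204 CPM. Rn45s and Rn28s, which hold ribosomal RNA, took 4.07% to 11.4% in untreated and 5.88% to 11.9% of counts in ibudilast rats. The part of these markers and of ribosomal RNA in the results below was not tested. In bulk tissue a change in the number of cells of a type and a change of RNA per cell cannot be told apart.

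The TOP element is a feature of sequence that the choice by symbol did not use, so it was looked up in RefSeq promoters of the GRCr8 build, which held 64 of the 80 genes. A pyrimidine start was counted where the annotated first base was C and each of the next 4 bases was C or T, on the gene's strand only. It was present in 24 of 64 ribosomal protein genes (37.5%), against 2.91% of the 9220 tested genes with an entry and 2 of 63 mitochondrial ribosomal protein genes (3.17%). Allowing the start to lie up to 5 bases to either side gave 40 of 64 (62.5%), against 17.6% of tested genes. The bases around the start are shown for 5 genes with the tract and for 4 without it at the annotated base, chosen among the genes with the largest and smallest changes and the stalk protein gene Rplp0. Each runs from 10 bases before the start to 20 bases from it, 5′ to 3′, with the pyrimidine run in capitals:
Rps14, chr18:56498250-56498279, plus strand: ccgtctctctCTTTCCggtggaggagtctg
Rps27, chr2:177964587-177964616, minus strand: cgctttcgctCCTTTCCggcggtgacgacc
Rpl37a, chr9:81748081-81748110, plus strand: cccgttgcgtCTCTTCCTCTTCgggcttgg
Rpl10, chrX:157205840-157205869, plus strand: gtgggagcgtCTCTTTTCCTCTggcgcggt
Rplp0, chr12:46718371-46718400, minus strand: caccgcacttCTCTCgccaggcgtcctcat
Rpl41, chr7:1563478-1563507, minus strand: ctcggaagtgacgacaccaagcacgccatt
Rpl13a, chr1:104748894-104748923, minus strand: tcctttcctaggcggctgccgaagatggcg
Rps9, chr1:74430418-74430447, minus strand: cggccacgtttctctttgtcacgggcctga
Rps2, chr10:14251838-14251867, plus strand: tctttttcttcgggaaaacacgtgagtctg

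Rps9 has a pyrimidine run that spans its annotated start, a T. In Rpl13a a run ends a base short of the start, and in Rps2 a run ends on the start itself, a C. The count therefore depends on which base is annotated as the start. Coordinates are of GRCr8, while the counts were made on rn6. The letters CCGGAAG, a core bound by ETS factors, were found on either strand of the 300-base promoter window in 31.2% of the 64 genes and 16.4% of tested genes, and AAGATGG, a core bound by YY1, in 15.6% and 8.26%. Mitochondrial ribosomal protein genes held these at 33.3% and 27.0%. CTTTCC, letters common in TOP tracts, stood at 46.9% and 26.7%. The Sp1 core GGGCGG, at 57.8% against 62.4%, and the TATA letters TATAAA, at 10.9% against 7.18%, were nearer to the other genes. The AAG that ends CCGGAAG also opens AAGATGG, so these motifs can overlap, and a match is a description and not a binding site.

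The comparison asked which transcripts differ between ibudilast and untreated transgenic rats. Of the 79 ribosomal protein genes tested, 75 rose with ibudilast, 0 fell and 4 did not pass, by edgeR's quasi-likelihood test at an adjusted p under 0.05. Over all 12355 genes tested, 24.3% rose and 22.8% fell. The median log2 fold change was 0.52 over the family, with an interquartile range from 0.41 to 0.60, and 0.02 over all genes, with one from −0.35 to 0.37. All 79 fitted values were above 0, from 0.17 to 1.32. The SD of the log2 fold change was 0.16 across the family and 0.60 across all genes. The genes were not matched for count level, and low counts widen such an SD. The family took 1.81% to 2.66% of counts in untreated and 2.92% to 3.20% in ibudilast libraries, or 2.23 ± 0.443% and 3.42 ± 0.0828% (SD, n = 5 each) once the ribosomal RNA genes are left out of the total.

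A single rat stood far from the rest of the untreated group. The mean log2 CPM of the family was 7.52, 7.58, 8.17, 7.73 and 7.69 in untreated replicates 1 to 5 and 8.26, 8.25, 8.39, 8.18 and 8.31 in ibudilast replicates 1 to 5. Untreated replicate 3 lay just under the lowest ibudilast rat, while the other 4 untreated rats were lower than every ibudilast rat. It was the highest untreated rat for 77 of 79 genes, at or above the lowest ibudilast rat for 45 and above the ibudilast mean for 13. The groups were apart, with ibudilast higher, for 32 of 79 genes (18.0% of all genes tested were higher without overlap). They were apart with ibudilast lower for 0 (15.4%). They were apart with ibudilast higher for 77 of 79 without that rat (22.6%). That rat was singled out by its high values in these same genes. Leaving it out therefore favours separation and larger rises in this family, and the shares over all genes do not carry that choice. Without untreated replicate 3 the test called 78 of 79 genes higher, all but Rps27l (24.7% of all genes), and the median log2 fold change of the family was 0.64. Without the 4 libraries that earlier work on these data found to stand apart by marker genes, untreated replicates 2 and 3 and ibudilast replicates 1 and 4, it called 78 (28.3% of all genes), at a median of 0.67.

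**Figure D1:**
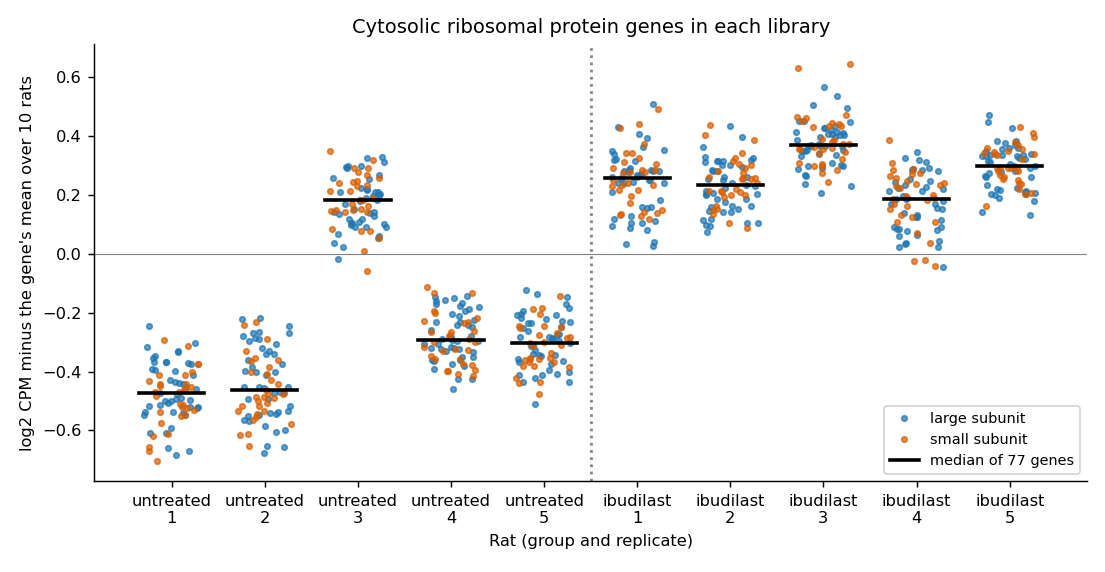
Log2 CPM of 77 ribosomal protein genes (all tested but the low-count paralogs Rpl3l and Rps27l) in each of the 10 rats, less each gene's mean over the 10. Points are genes, coloured by subunit, and bars are medians. Untreated replicate 3 lies beside the ibudilast rats, and large and small subunit genes lie together in every rat.

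Genes of both subunits rose. Of 47 large subunit genes 45 rose, at a median log2 fold change of 0.51 (interquartile range 0.39 to 0.60), and of 32 small subunit genes 30 rose, at a median of 0.52 (0.45 to 0.60). Leaving out untreated replicate 3, 47 and 31 rose, at medians of 0.63 and 0.65. The mean log2 CPM of large less small subunit genes was −0.01, 0.01, −0.01, 0.00 and −0.01 in untreated replicates 1 to 5 and −0.03, −0.02, 0.01, −0.03 and 0.01 in ibudilast replicates 1 to 5. These differences overlapped between the groups, at −0.00256 ± 0.00988 and −0.0118 ± 0.0205 (SD, n = 5 each). The 33 proteins conserved in all domains of life had a median of 0.49 with 31 higher, and the other 46 a median of 0.53 with 44 higher. Of 18 genes whose loss causes Diamond-Blackfan anaemia, an inherited failure of red cell formation, 17 rose (median 0.54). Over all genes tested 24.3% rose. Without untreated replicate 3 the conserved proteins had a median of 0.57 with 33 higher, the others 0.65 with 45 higher, and the anaemia genes 0.66 with 18 higher. In that fit 24.7% of all genes rose.

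**Figure D2:**
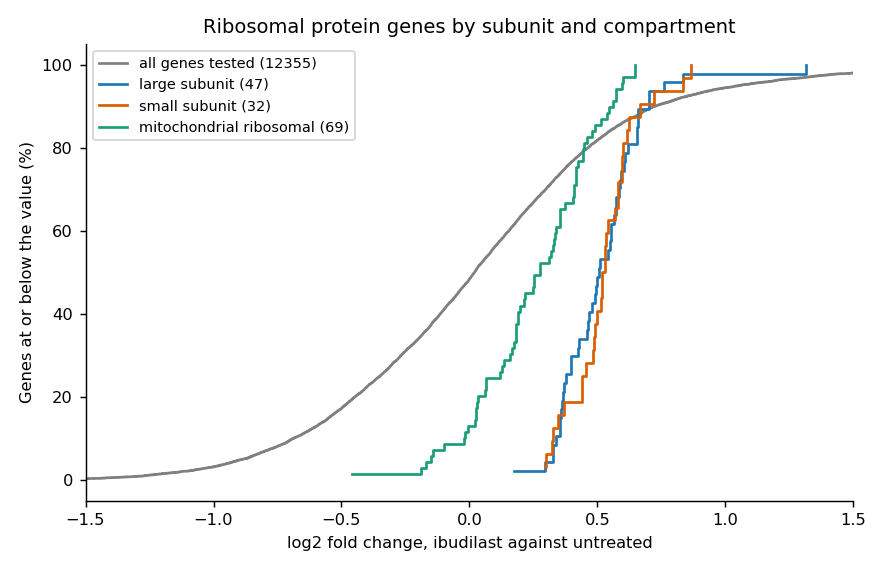
Cumulative share of genes by log2 fold change of ibudilast against untreated rats, for 47 large and 32 small subunit genes, 69 mitochondrial ribosomal protein genes and all 12355 genes tested. At the quartiles and the median the curves of both subunits lie close together and to the right of the other curves.

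In the large subunit, the stalk proteins Rplp0, Rplp1 and Rplp2, which bring elongation factors to the ribosome, all rose. Rplp0 was at 448, 460, 651, 478 and 494 CPM in untreated and 760, 685, 733, 631 and 742 CPM with ibudilast (log2 fold change 0.49 ± 0.12 (SE), adjusted p = 0.00550). Only untreated replicate 3 reached into the range of the ibudilast group. Rplp1 had a log2 fold change of 0.59 and Rplp2 of 0.36. Rpl5 and Rpl11, which join 5S ribosomal RNA and, when free, can bind and restrain Mdm2, rose by 0.37 and 0.57. The proteins near the peptidyl transferase centre, where peptide bonds form, were among the smaller rises: Rpl3 at 0.40, Rpl8 at 0.35 and Rpl10, one of the last proteins to join the subunit, at 0.33. Rpl8 and Rpl10 passed with all rats but lost their calls without each of several libraries, with adjusted p up to 0.0830 and 0.0967. Of 9 proteins of the peptide exit tunnel and its rim, 8 rose, with a median of 0.51, beside 24.3% of all genes. The 9th, Rpl23a, which docks factors that receive the nascent chain, was at 304.6 ± 70.7 CPM in untreated and 385 ± 21.4 CPM with ibudilast and did not pass (0.34, adjusted p = 0.0658). It passed without untreated replicate 3 (0.46).

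In the small subunit, Rps2, Rps3, Rps9 and Rps23 lie where mRNA enters and is decoded. Rps23 rose by 0.52 and Rps3 by 0.44. Rps9 rose by 0.29 ± 0.09 (SE), from 265 ± 26.9 to 324 ± 28.0 CPM (SD, n = 5; adjusted p = 0.0225), a call lost without untreated replicate 1, 2 or 4 or ibudilast replicate 3 or 5 (adjusted p up to 0.0595). The members with the highest mean CPM, a value not scaled for transcript length, were Rplp1, Rps2, Rpl4 (0.36), Rpl13a, Rpl3 and Rplp0. Rps2 was at 568, 578, 865, 604 and 597 CPM in untreated and 831, 760, 853, 687 and 815 CPM with ibudilast, and did not pass (0.30, adjusted p = 0.0826). Untreated replicate 3 was the highest of all 10 rats for this gene, and without it Rps2 passed at 0.40. Rps6, the target of the S6 kinases downstream of mTOR, rose from 336 ± 41.2 to 472 ± 28.9 CPM (0.49, adjusted p = 0.00191). Rps27a, which is made fused to ubiquitin, rose by 0.53, and Rpsa, also known as a laminin receptor, by 0.60.

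**Figure D3:**
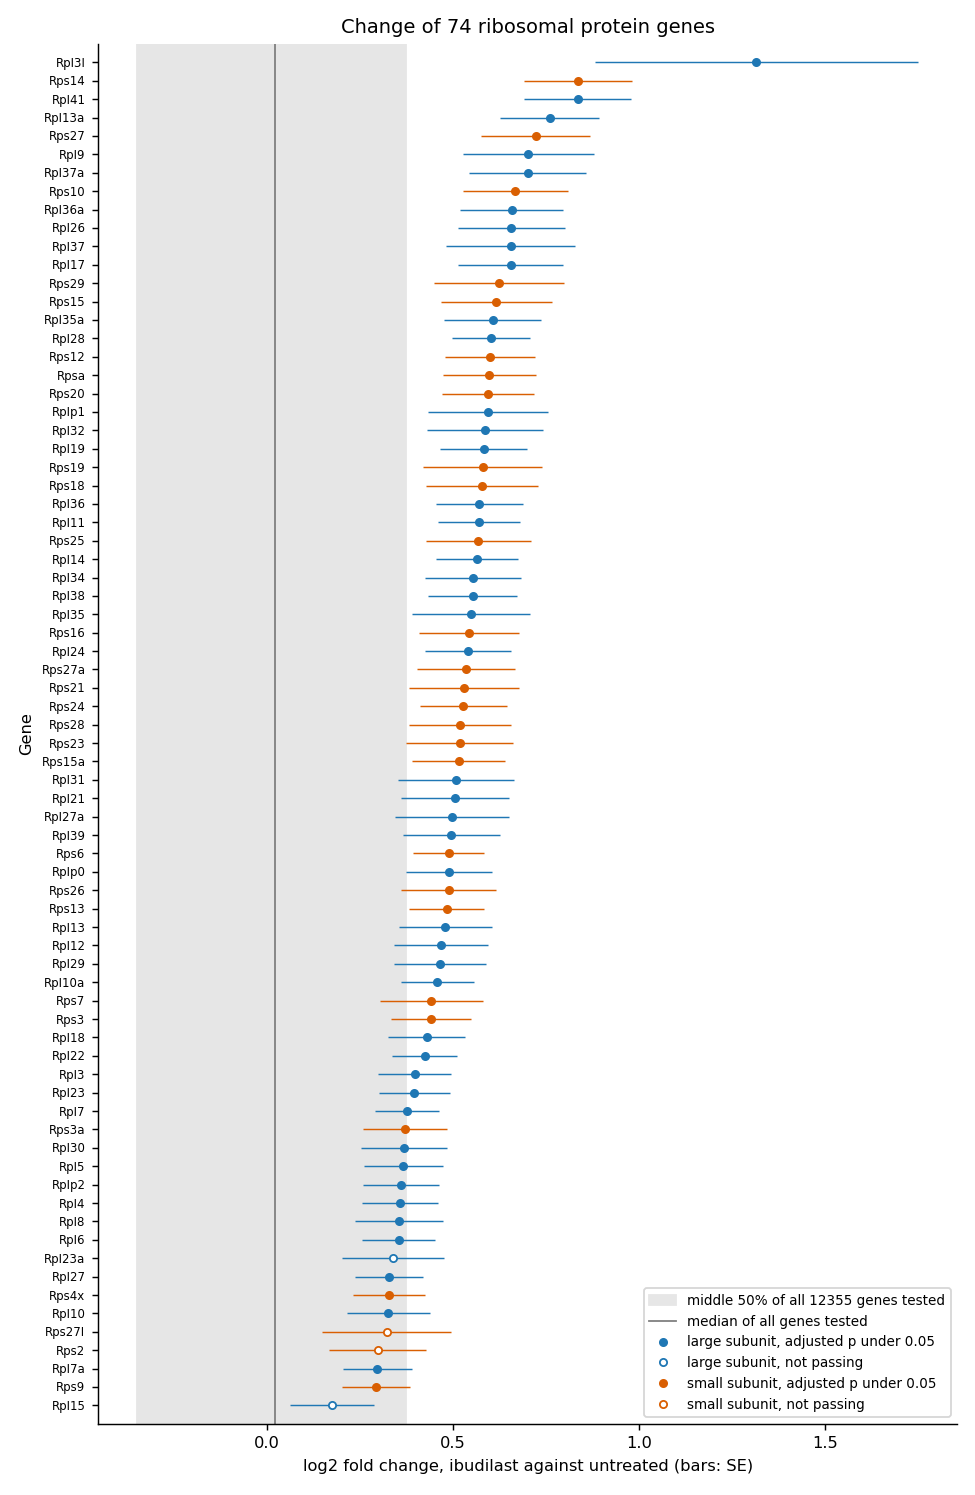
Log2 fold change of ibudilast against untreated rats for 74 ribosomal protein genes, with standard errors. Filled points passed at an adjusted p under 0.05, open points did not, and the grey band holds the middle 50% of all genes tested, from −0.35 to 0.37. All points lie to the right of 0, and Rpl15 is the lowest.

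Among the largest rises after Rpl3l, a paralog, were those of Rps14, Rpl41, Rpl13a, Rps27, Rpl9 and Rpl37a. Rps14, of the platform of the small subunit, was at 169, 175, 286, 215 and 198 CPM in untreated and 388, 374, 431, 333 and 338 CPM with ibudilast (log2 fold change 0.84 ± 0.15 (SE), adjusted p = 0.000974). Rpl41, the shortest of the ribosomal proteins and part of a bridge between the subunits, was at 338, 355, 573, 391 and 377 CPM in untreated and 765, 727, 796, 656 and 685 CPM with ibudilast (0.84 ± 0.14, adjusted p = 0.000932). For both genes even untreated replicate 3 lay below every ibudilast rat. Rpl13a, which also takes part in silencing of inflammatory mRNAs in myeloid cells, rose by 0.76, from 507 ± 107 to 858 ± 40.0 CPM. The zinc-binding proteins Rps27 and Rpl37a rose by 0.72 and 0.70, and Rpl9 by 0.70. Below them were Rps10, Rpl36a, Rpl26, Rpl37, Rpl17, Rps29, Rps15, Rpl35a, Rpl28, Rps12, Rpsa, Rps20 and Rplp1, in that order, from 0.67 to 0.59.

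The middle of the family was dense. Rpl32, Rpl19, Rps19, Rps18, Rpl36, Rpl11, Rps25, Rpl14, Rpl34, Rpl38, Rpl35, Rps16, Rpl24, Rps27a, Rps21, Rps24, Rps28, Rps23, Rps15a, Rpl31, Rpl21, Rpl27a and Rpl39 ran from 0.59 to 0.50, with standard errors of 0.11 to 0.16. Those errors are of each gene's difference between the groups and hold variation that the members share. They do not measure differences between members. Rps6, Rplp0, Rps26, Rps13, Rpl13, Rpl12, Rpl29, Rpl10a, Rps7, Rps3, Rpl18 and Rpl22 ran from 0.49 to 0.42. Rpl3, Rpl23, Rpl7, Rps3a, Rpl30, Rpl5, Rplp2, Rpl4, Rpl8 and Rpl6 followed, from 0.40 to 0.35. At the low end stood Rpl23a, Rpl27 (0.33 ± 0.09, SE), Rps4x (0.33 ± 0.10), Rpl10, Rps27l, Rps2, Rpl7a (0.30 ± 0.09), Rps9 and Rpl15. Rps4x is the X-linked form of its protein. The call of Rpl7a was lost without each of several rats, at adjusted p up to 0.0688, and that of Rps4x only without untreated replicate 2 (0.0520). Rpl15, a protein of the core of the large subunit, was at 231, 235, 335, 244 and 249 CPM in untreated and 279, 288, 328, 265 and 302 CPM with ibudilast. Its log2 fold change was 0.17 ± 0.11 (SE) and did not pass (adjusted p = 0.228). Untreated replicate 3 was again the highest of the 10 rats, and without it Rpl15 passed at 0.26 (adjusted p = 0.0123), the smallest change of the 77 genes other than Rpl3l and Rps27l.

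To see which genes differed from the family, the whole table was also fitted with library sizes taken from the ribosomal protein genes. A value of 0 then means a change equal to the family's. Because the members set the scale, their median is held near 0 and variation that they share is taken out. The share of members called is therefore not comparable with that of all genes. On this scale 4 of 79 members passed, 3 above and 1 below, while 58.1% of all genes differed from the family, 4.31% above and 53.8% below it. Of these members Rpl41 was at 0.32 ± 0.11 (SE, adjusted p = 0.0233) and Rps14 at 0.32 ± 0.11 (0.0226) above the family, and Rpl15 at −0.35 ± 0.10 (0.00993) below it. With so many genes called, the adjusted threshold stood at an unadjusted p of 0.0291. The call of Rpl15 held in all 16 alternatives with a family scale. Those of Rpl41 and Rps14 were lost in 7 and 6 of them, at values down to 0.30 and 0.28 and adjusted p up to 0.0753 and 0.0697. The libraries concerned were untreated replicates 2 and 5 and ibudilast replicates 1, 2 and 3 for both genes, and untreated replicate 4 for Rpl41, and both were lost in the fit with a replicate block.

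Taken rat by rat as log2 CPM less the family mean, Rps14 was at −0.12, −0.13, −0.01, 0.02 and −0.06 in untreated and 0.34, 0.30, 0.37, 0.20 and 0.09 in ibudilast rats. Rpl15 was at 0.33, 0.30, 0.22, 0.20 and 0.27 in untreated and −0.14, −0.08, −0.03, −0.13 and −0.08 in ibudilast rats. On this scale untreated replicate 3 sat with the untreated rats for both genes, unlike on the CPM scale. For Rps9 it did not: that gene was at 0.37, 0.37, 0.09, 0.33 and 0.35 in untreated and 0.06, 0.03, 0.10, −0.01 and 0.12 in ibudilast rats. The groups did not overlap for 19 members, 11 higher with ibudilast (among them Rpl13a, Rpl26, Rpl36a, Rpl41, Rps10, Rps12, Rps14, Rps20 and Rps27) and 8 lower (among them Rpl15, Rpl23a, Rpl30, Rpl7a, Rpl8, Rps2 and Rps3a). The same held for 3.13% and 30.9% of all genes tested. With untreated replicate 3 left out the groups were apart for 22 members higher and 21 lower (3.50% and 59.1% of all genes).

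**Figure D4:**
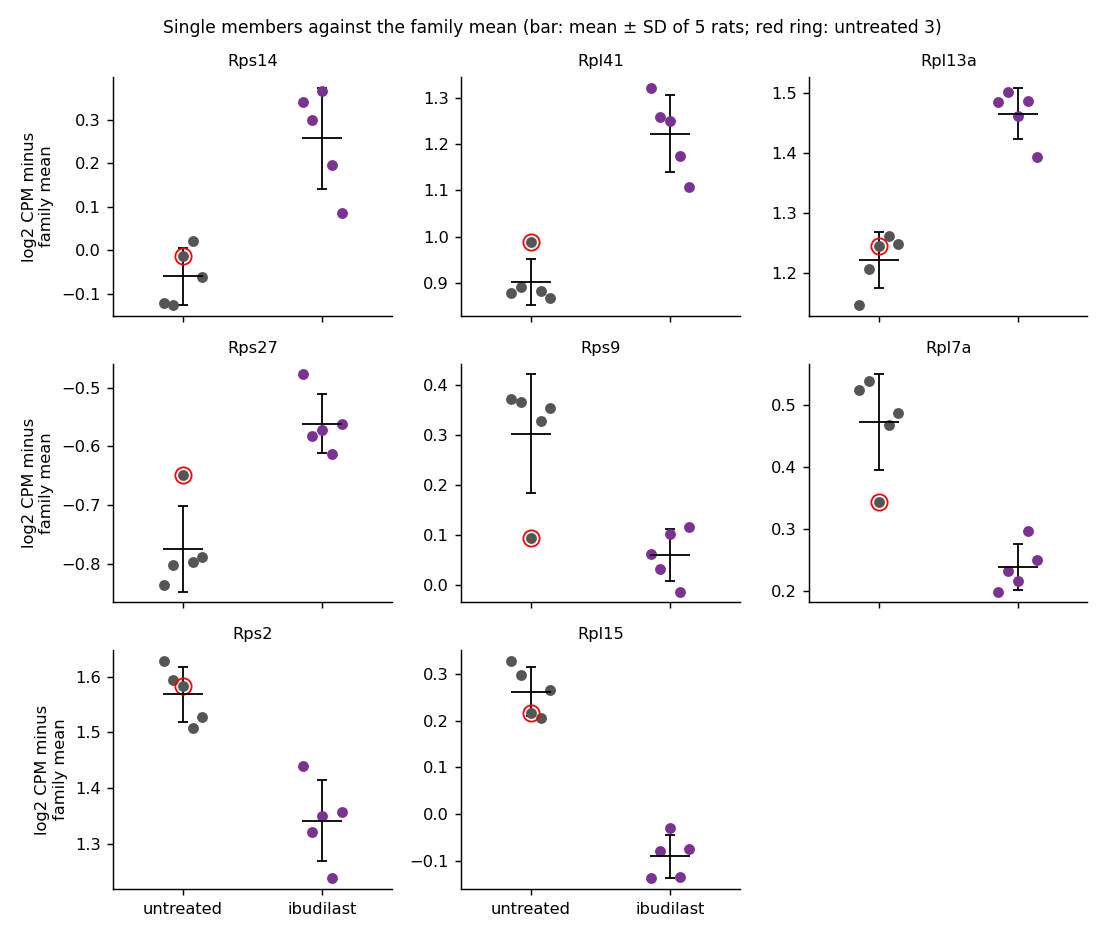
Log2 CPM less the mean of the 79 tested ribosomal protein genes in the same rat, for 8 genes that DESeq2 called as differing from the family. Points are rats, bars are mean ± SD of 5, and a red ring marks untreated replicate 3, which sits with the ibudilast rats for Rps9 and with the untreated rats for Rps14 and Rpl15.

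The number of members that differ from the family depended on untreated replicate 3. Without it 33 of 79 passed by edgeR, 13 above and 20 below (70.6% of all genes), and they included the 4 called with all rats. The larger departures included Rpl41 at 0.33, Rps14 at 0.32, Rpl9 at 0.25 and Rpl37a at 0.24 above, and Rpl15 at −0.37, Rps9 at −0.30, Rpl7a at −0.27 and Rpl27 at −0.24 below. Of the 33, 23 were of the large and 10 of the small subunit. DESeq2 on all rats called 9 (58.9% of all genes), adding Rpl13a and Rps27 above and Rps2, Rpl7a and Rps9 below. Without untreated replicate 5 or ibudilast replicate 1, 2 or 3, and with a replicate block, 2 passed, and without the 4 libraries named above 12 did.

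Genes with the larger rises with ibudilast were also further up in untreated replicate 3. For 77 genes, leaving out Rpl3l and Rps27l, that rat exceeded the mean of the other 4 untreated rats by 0.21 to 0.85 on the log2 scale, with a median of 0.55. The log2 fold change with ibudilast computed without it ran from 0.26 to 0.97, with a median of 0.64. Across the 77 genes the 2 values had a Pearson r of 0.72 and a Spearman rho of 0.75. Both values take the same 4 untreated rats as reference, which by itself tends to make them correlate positively. Genes are also not independent, so these are descriptions. Rpl15 lay below the trend, at 0.48 in that rat and 0.26 with ibudilast.

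**Figure D5:**
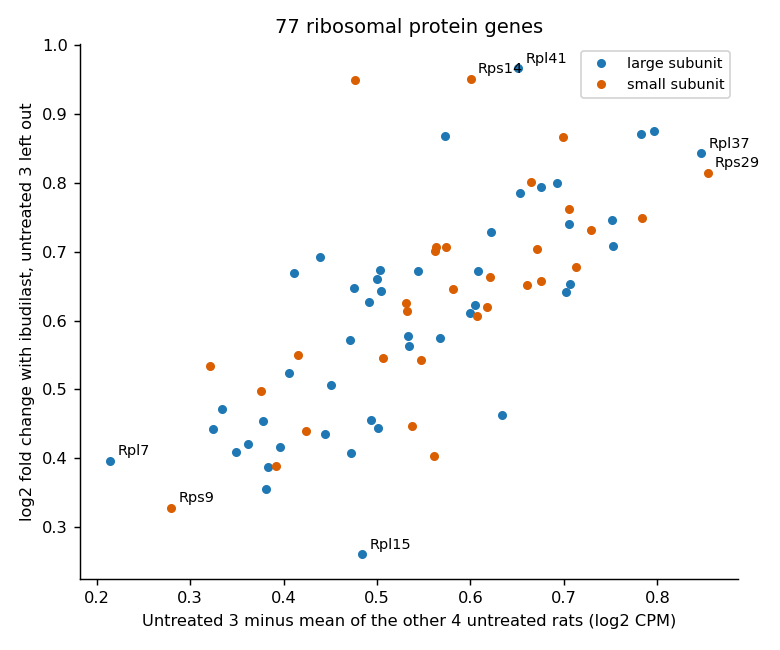
Each point is 1 of 77 ribosomal protein genes. The horizontal axis is its log2 CPM in untreated replicate 3 less the mean of the other 4 untreated rats, and the vertical axis its log2 fold change with ibudilast without that rat. Most points rise together, with Rps14 and Rpl41 near the top and Rpl15 at the bottom.

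Members with a pyrimidine start had a median log2 fold change of 0.57 (24 genes, interquartile range 0.49 to 0.63), and those without one at the annotated start 0.51 (40 genes, 0.40 to 0.57). Leaving out untreated replicate 3, the medians were 0.67 and 0.62. The ranges overlapped widely, from 0.33 to 0.84 and from 0.29 to 1.32, the last being Rpl3l, which had few counts. Rpl10 carries a run of 12 pyrimidines and had 1 of the smaller changes, at 0.33. Rpl41 and Rpl13a, without a tract at the annotated start, had 2 of the largest. In Rpl13a, however, a run ends a base short of that start. Allowing 5 bases to either side gave a tract in 40 of 64 genes, so this split depends on the annotated start. Among 16 other genes known for TOP mRNAs, Gnb2l1 among them, 5 rose, 4 fell and 7 did not pass, with a median of 0.05, beside 24.3% higher and 22.8% lower over all genes. Without untreated replicate 3, 6 rose and 5 fell, with a median of 0.08, beside 24.7% and 26.0%. The elongation factor subunits Eef1d and Eef1b2 rose by 0.30 and 0.33, whereas Eif3a, the largest subunit of an initiation complex, was at −0.52, the poly(A)-binding protein gene Pabpc1 at −0.34, and the histone and ribosome chaperone genes Nap1l1 and Npm1 at −0.34 and −0.29, and these fell. Eef1a1, which brings aminoacyl-tRNA to the ribosome, was at 3516 ± 322 and 3705 ± 226 CPM (0.08, adjusted p = 0.569) and Eef2, the translocation factor, at −0.05 (0.799).

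Several members have a paralog that can take their place in the ribosome. Rpl3l, the striated muscle counterpart of Rpl3, had the largest fold change, 1.32 ± 0.44 (SE, adjusted p = 0.0287), but rested on 2 to 25 counts per library. It was at 0.120, 0.632, 0.499, 0.448 and 0.170 CPM in untreated and 0.749, 0.833, 1.12, 0.591 and 1.45 CPM with ibudilast, and the groups overlapped. Leaving out untreated replicate 1 or 5 or ibudilast replicate 3 or 5, or adding a replicate block, ended its call (adjusted p up to 0.0768). Rps27l, a p53-responsive counterpart of Rps27, was at 5.83, 8.69, 5.87, 7.11 and 5.74 CPM in untreated and 10.4, 8.45, 6.28, 9.21 and 7.18 CPM with ibudilast and did not pass (0.32, adjusted p = 0.151). Rps27 rose over the same rats, and the log2 ratio of Rps27l to Rps27 was −4.23 ± 0.48 in untreated and −4.66 ± 0.34 in ibudilast rats, with overlapping groups. Rpl39l had a mean of 0.203 CPM in untreated and 0.303 CPM with ibudilast, too low to test.

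Of 6 tested genes in a list of relatives that the naming rule left out, 5 rose, where 24.3% of all genes tested did. Rpl22l1, a paralog whose mRNA the protein of Rpl22 can repress, rose from 42.5 ± 3.47 to 70.3 ± 9.16 CPM (0.73 ± 0.10 (SE), adjusted p = 0.000194) with no overlap between groups, beside 0.42 for Rpl22. Its log2 ratio to Rpl22 was −0.61, −0.80, −0.85, −0.71 and −0.64 in untreated and −0.50, −0.46, −0.25, −0.42 and −0.53 in ibudilast rats, so that every ibudilast rat had relatively more of the paralog. Fau, which encodes a ribosomal protein fused to a ubiquitin-like protein, rose by 0.56, and Rpl36al, a near copy of Rpl36a, by 0.42. The log2 ratio of Rpl36al to Rpl36a was −0.40 ± 0.19 in untreated and −0.66 ± 0.07 in ibudilast rats (SD, n = 5 each). Its mean thus moved the opposite way to that of Rpl22l1 to Rpl22, with overlapping groups. Gnb2l1, an older symbol of Rack1, the signalling scaffold on the small subunit, rose by 0.29. Rsl24d1, an assembly factor that holds the place of Rpl24, was at −0.06 (adjusted p = 0.658). Without untreated replicate 3, 5 of the 6 again passed as higher, where 24.7% of all genes did. Rps4y2, a relative of Rps4x that neither the naming rule nor this list holds, had 24 to 98 counts per library and did not pass (3.52 ± 1.56 CPM in untreated and 2.84 ± 0.912 CPM with ibudilast, log2 fold change −0.30 ± 0.32 (SE), adjusted p = 0.462).

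The ribosome of mitochondria has its own protein genes, and these moved less evenly. Of 69 tested, 38 rose, 1 fell and 30 did not pass, with a median log2 fold change of 0.28 and a range from −0.46 to 0.65. Over all genes 24.3% rose and 22.8% fell. On the scale of the cytosolic family 25 of the 69 were below it and 0 above, where 53.8% of all genes were below. Without untreated replicate 3, 38 rose and 2 fell, with a median of 0.24, and 54 were below the family, where 65.9% of all genes were. Over all genes 24.7% rose and 26.0% fell without that rat.

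Of 42 ribosome biogenesis genes, 14 rose, 5 fell and 23 did not pass, with a median of 0.10, beside the same shares over all genes of 24.3% and 22.8%. With untreated replicate 3 left out, 13 rose and 7 fell, with a median of 0.01, beside 24.7% and 26.0% of all genes. Nob1, which trims the end of small subunit RNA, rose by 0.62, Nle1, a maturation factor of the large subunit, by 0.80, the snoRNA protein genes Nop56 and Dkc1 by 0.47 and 0.73, while Nhp2l1 and the helicase gene Ddx21 were at −0.58 and −0.53 and fell. Ubtf and Polr1b, of ribosomal RNA transcription, were at 0.02 and 0.00 (adjusted p = 0.806 and 0.986). In the list of mTOR and S6 kinase signalling, 5 of 11 rose and 3 fell, and without untreated replicate 3 it was 4 and 3. Rps6kb2, an S6 kinase, went from 17.6 ± 6.47 to 79.3 ± 5.40 CPM (2.17 ± 0.20 (SE)), the other S6 kinase Rps6kb1 rose by 0.20, and the mTORC1 partners Akt1s1 and Mlst8 rose by 0.45 and 0.37. Eif4ebp1 and Eif4ebp2, repressors of cap-dependent initiation, were at 0.34 and −0.56 and moved in opposite directions. Mtor itself was at −0.27 and its activator Rheb at −0.52, and both fell.

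Reads of ribosomal protein genes are hard to place, because the genome is full of their retrocopies. RefSeq's GRCr8 annotation has 869 Rpl and Rps symbols of the pseudogene class. The count table held fractional values, a sign of reads shared between genes, for 14 of the 80 members, among them Rps10, Rpl36a, Rpl17, Rpl19, Rpl28 and Rpl7a. Those 14 had a median log2 fold change of 0.50, with all 14 higher, and the 65 tested members with whole values only 0.52, with 61 higher. Over all genes tested 24.3% were higher. A whole value does not show that reads of an unannotated copy are absent.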

How the data were processed

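Strand-specific mRNA libraries were made, 1 per rat, per the labels' protocols. The authors deposited expected counts per gene symbol, not normalized. The tools RSEM 1.2.15, Bowtie2 2.1.0, edgeR and bcl2fastq, and the build rn6, come from the submitters' processing notes, which give no role or order here. The annotation was not given in the sources used here. Columns were matched to rats by title. A deposited table of TMM-normalized values was not used.

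Of the expected count values 12.0% were not whole, and all were rounded. Groups were compared by edgeR's quasi-likelihood test (edgeR 4.0.16, limma 3.58.1, R 4.3.3; TMM, filterByExpr, robust fitting) over 12355 of 17168 genes, with Benjamini-Hochberg adjustment over all of them and a threshold of 0.05. CPM used TMM-scaled library sizes, and log2 CPM a prior count of 2. The family scale took size factors as the median of ratios over the ribosomal protein genes and refitted the whole table. Both fits were run on simulated data in which no rat stood apart. The simulated departures from the family were larger than those reported here, so the simulation does not bear on these calls. Alternatives included DESeq2 1.42.0, limma-voom, other factors and filters, and leaving out each rat.

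The series' design text calls the animals separate rats; no pair of libraries within a group agreed within sampling noise (lowest chi-square per gene 11.5). The members and lists were chosen with earlier results of these data known. All members enter the counts, and a few are not reported here by name. Among the named members, values, for some the fold change alone, are given for the genes not passing, the 8 largest and 8 smallest changes, and the 6 with the highest mean CPM. They are also given for those differing from the family, paralogs, and members of short role lists. From other lists up to 6 genes by smallest p are named. The elongation factor genes Eef1a1 and Eef2, the ribosomal RNA transcription genes Ubtf and Polr1b, and Rps6, Rps27a, Rpsa, Rps6kb1, Eif4ebp1 and Rps4y2 were named after their values were seen. Transcript length was not used, so CPM is not comparable between genes.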

Additional observations from a re-analysis of the deposited data

Results flagged for a closer look

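In 52 of 184 groups of 5 rats checked, 1 rat lay far from the other 4, by a gap that chance alone gives in about 1 of 20 groups. The groups are not independent, since 45 of them are member genes with the same rat, untreated replicate 3, high. Among these its CPM was 573 for Rpl41, 184 for Rps27, 533 for Rpl9, 171 for Rpl37a, 282 for Rps10, 127 for Rpl36a, 447 for Rpl26, 370.0 for Rpl37, 388 for Rpl17, 387 for Rps29, 367 for Rps15, 222 for Rpl35a, 273 for Rps12, 630.2 for Rpsa. It was also 219.8 for Rps20, 858 for Rplp1, 416 for Rpl32, 372 for Rps19, 306 for Rps18, 217 for Rpl36, 251 for Rpl11, 271 for Rps25, 192 for Rpl34, 498 for Rpl35, 518 for Rps16, 282 for Rps21, 113 for Rps28, 471 for Rps23, 299.9 for Rps15a. It was further 347 for Rpl31, 560.4 for Rpl27a, 651 for Rplp0, 256 for Rps26, 663 for Rpl13, 398 for Rpl29, 651 for Rps7, 389 for Rpl6, 352 for Rpl10, 865 for Rps2, 366 for Rpl7a and 335 for Rpl15. In the same rat the family took 2.66% of all counts, 3.001% of counts without ribosomal RNA genes, and a summed 28496 CPM, and the log2 ratio of Rpl36al to Rpl36a was −0.73, below the other untreated rats. In the ibudilast group, Rps4x at 429.8 CPM was high in replicate 3, and Rpl37 at 335 CPM was low in replicate 4.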

How the results depend on the processing

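The replicate numbers did not pair the rats: correlations of same-numbered rats' deviations from the group means ran from −0.33 to 0.42, and 0 of 5 untreated rats matched their own number best. With a replicate block 75 members rose and 4726 genes passed. The count of members higher was 72 to 77 over other factors, filters and tools and 64 to 78 without each rat, and 0 members were lower in any of the 19 alternatives. Of the 75 calls 63 held in all 19; the other 12 (among them Rpl10, Rpl27a, Rpl30, Rpl31, Rpl3l, Rpl7a, Rpl8, Rps3a, Rps4x, Rps7 and Rps9) were lost in at least 1, at adjusted p up to 0.0967 and with the same sign. Rpl15, Rpl23a and Rps2 passed in at least 1. Members differing from the family numbered 4, 9 by DESeq2, 2 with a replicate block, 12 without the 4 libraries, and 2 to 33 without each rat; the cause was not tested. Library totals alone moved the median of all genes by 0.07 on the log2 scale and the share of calls that were higher from 51.6% to 59.8%. Every member had at least 1048 counts in each library except Rpl3l, Rps27l and Rpl39l, where depth limits the values.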
